A study of Mus musculus with 10 samples.

Results

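Chemokines and their receptors were examined in gastrocnemius, a calf muscle, of mice whose mitochondrial DNA accumulates mutations. The members were the probe sets (groups of short oligonucleotides on the array that read the same transcript) annotated to a single gene whose symbol is Ccl, Cxcl, Ccr or Cxcr followed by a number, or Cx3cl1, Cx3cr1, Xcl1 or Xcr1. This rule gave 76 probe sets of 48 genes of the 18193 genes read by 45037 probe sets on the Affymetrix Mouse Genome 430 2.0 array, control probe sets left out. Of the 48 genes, 18 were read by more than 1 probe set, and 1 further probe set that names Ccl19 together with another gene was left out.

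The D257A mice were PolgD257A/D257A, homozygous for a knock-in change in the exonuclease domain of Polg, the polymerase that copies mitochondrial DNA, and the WT mice were Polg+/+. Both groups held 5 males of 13 months, both came from a mixed 129Sv/ICR/B6 stock crossed back to C57Bl/6J, and each mouse had 1 array with no pooling. The change is carried by every cell of the D257A mice, and whole muscle was used, so that fewer cells of a type and less RNA per cell cannot be told apart. The comparison asks how the genotype, D257A vs. WT, altered the RNA of these signalling genes in muscle at the age studied.

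Chemokines are small secreted proteins that guide the movement of leukocytes, and they are sorted by the spacing of their conserved cysteines into CC, CXC, CX3C and XC ligands. They act through receptors with a heptahelical fold that couple to inhibitory G proteins, and most receptors bind several ligands. In skeletal muscle, resident macrophages, endothelial cells and connective tissue cells are known sources, and ligands of Ccr2 bring monocytes into the tissue after injury.

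All levels below are scaled signals, that is, the deposited intensity of a probe set multiplied by a factor that sets the trimmed mean of its array (2% of probe sets left out at each end) to 500. Trimmed means before this step were 93.4 to 106 in D257A mice and 94.5 to 129 in WT mice. The file gives no detection calls, so a background limit was set on each array at the 95th percentile of the 43 probe sets for odorant receptor genes, most of which are silent in muscle. This limit was a scaled signal of 80.7 to 121 in D257A mice and 93.4 to 161 in WT mice. Only probe sets whose mean log2 signal over the 10 arrays exceeded the median of all probe sets, 6.26 (a scaled signal of 76.9), were tested, which left 22518. A difference was called at an adjusted p under 0.05 in limma, a linear model on log2 signals with a variance shared across probe sets, after Benjamini-Hochberg adjustment over the 22518. The 10 muscle fibre markers, among them myosin heavy chains and creatine kinase, were all bright enough for a test. WT mouse 1-13M lay apart: over the tested probe sets, the root mean square log2 difference from the mean of the other arrays of its genotype was 0.62, against 0.36 to 0.47 in the other WT mice and 0.35 to 0.43 in D257A mice. Called probe sets are therefore given with and without it, and gene lists where its absence alters a count.

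Most members were dim. Of the 76 probe sets, 10 were above the background limit in all 10 mice, 23 in some mice and 43 in no mouse. These counts left 25 of the 48 genes above the limit in no mouse with any of their probe sets. In all, 24 probe sets of 17 genes passed the filter and 52 did not, which left 31 genes without a test. Ligands made up most of what could be measured. Tested probe sets numbered 9 of 22 for CC ligands, 11 of 23 for CXC ligands, 1 of 5 for CX3C and XC ligands, and 3 of 26 for the receptors. A probe set can pass such a filter through the genotype in which it is bright, so that the 24 are not a sample of all members.

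**Figure D1:**
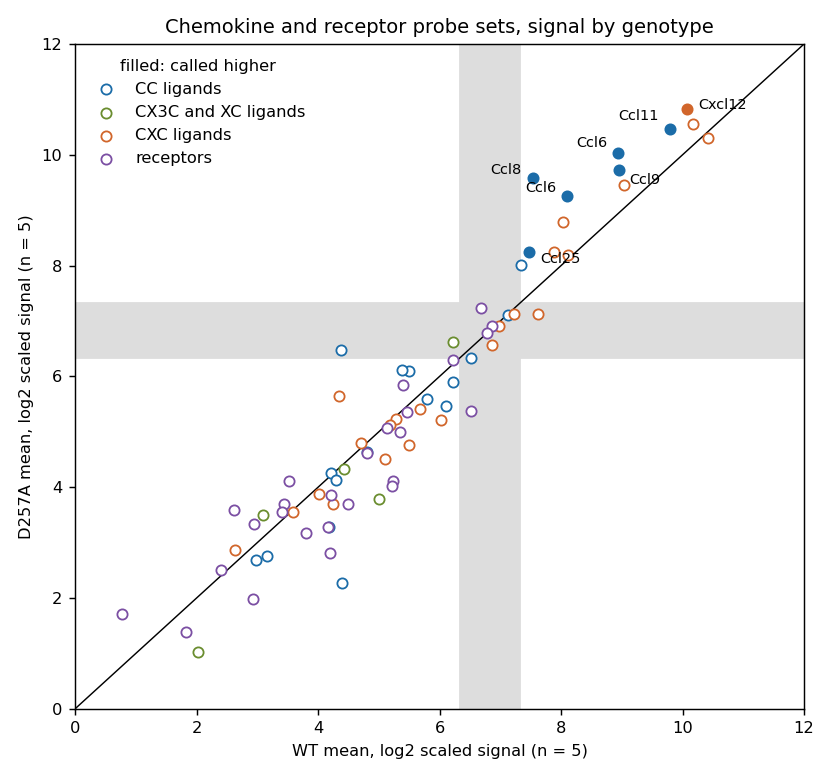
Mean log2 scaled signal of each of the 76 member probe sets in WT mice (x axis) and D257A mice (y axis), n = 5 each, with a line of equality and grey bands that span the background limits of the 10 arrays. The 7 probe sets called higher in D257A mice (filled and named) lie above the line in the bright corner, while 52 probe sets were too dim for a test.

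Among the 24 tested probe sets, 7 probe sets of 6 genes were higher in D257A mice, 0 were lower and 17 were not called. The share called higher was 29.2%, where 3.64% of all tested probe sets were called higher and 3.74% lower. At an unadjusted p under 0.05 in limma, 10 of the 24 were higher and 0 lower, beside 10.7% and 12.9% of all tested probe sets. Without WT mouse 1-13M, 7 of the 24 were called higher and 0 lower, while the shares over all tested probe sets were 7.32% and 7.90%. The genes called were the CC ligands Ccl8, Ccl6, Ccl9, Ccl25 and Ccl11 and the CXC ligand Cxcl12. In 6 of the 24 probe sets every D257A mouse exceeded every WT mouse, and in 0 the reverse held. Over all tested probe sets 3.94% were separated in this way towards D257A and 3.77% towards WT. The median log2 fold change (D257A minus WT) of the 24 was 0.39, with 16 of them (66.7%) above 0. Over all tested probe sets the median was -0.03 and 46.3% were above 0.

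The 5 called CC ligands, all secreted attractants of leukocytes, held 6 of the 7 called probe sets. The median log2 fold change of the 9 tested CC ligand probe sets was 0.77. The 11 CXC ligand probe sets had a median of 0.08 with 1 called, and the 3 receptor probe sets had a median of 0.05 with 0 called.

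**Figure D2:**
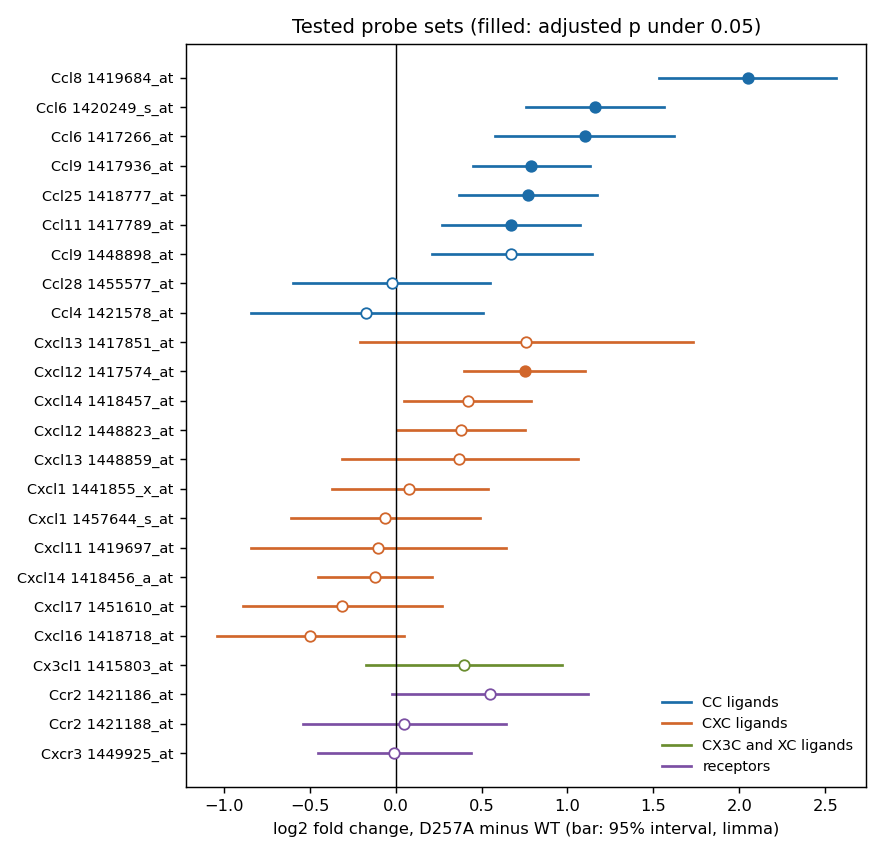
Log2 fold change (D257A minus WT, x axis) of the 24 tested probe sets by class, with 95% intervals from limma, and filled points for an adjusted p under 0.05. Ccl8 at 2.05 stands to the right of all others, and the intervals of 17 probe sets belong to values that were not called.

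Ccl8, a ligand of Ccr8 in mice that attracts monocytes and T cells, differed most. Its signals were 1195, 573, 775, 785 and 622 in D257A mice 2-17M, 2-21M, 2-25M, 2-27M and 2-30M, and 131, 259, 249, 133 and 191 in WT mice 1-12M, 1-13M, 2-3M, 2-32M and 3-18M. The lowest D257A mouse was well above the highest WT mouse, and WT mouse 1-12M was under its own background limit. Group means were 790 ± 245 in D257A vs. 193 ± 61.2 in WT (SD, n = 5 each), a 4.13-fold difference on the log scale. The log2 fold change was 2.05 with a standard error of 0.24 (95% interval 1.53 to 2.56, limma adjusted p = 4.69e-04). Without WT mouse 1-13M it was 2.17 (limma adjusted p = 5.54e-05).

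Ccl12, a monocyte attractant that acts through Ccr2, lies next to Ccl8 on chromosome 11. It was too dim for a test, with a mean log2 signal of 5.42. Its signals were 138, 52.7, 93.7, 57.3 and 147 in the D257A mice and 8.68, 28.0, 62.5, 5.60 and 43.9 in the WT mice, in the mouse order given for Ccl8. D257A mice 2-17M, 2-25M and 2-30M exceeded the background limit and no WT mouse did, and the genotypes overlapped through WT mouse 2-3M. The log2 difference of 2.12 therefore compares readings of which most lay under the limit. In a fit with no filter, over all 45037 probe sets, it was not called (limma adjusted p = 0.106). That fit called 5 members higher and 0 lower, beside 1.20% of all probe sets higher and 1.33% lower. Over all 76 members it gave 11 higher and 1 lower at an unadjusted p under 0.05, beside 6.32% and 9.11% of all probe sets.

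Ccl6, which acts through Ccr1 and is abundant in macrophages and neutrophils, was higher with both of its probe sets. The probe set 1420249_s_at, of a kind that can read closely related transcripts too, gave 788, 447, 602, 513 and 788 in the D257A mice and 258, 343, 218, 310 and 258 in the WT mice. Every D257A mouse was above every WT mouse. Its log2 fold change was 1.16 ± 0.19 (standard error, limma adjusted p = 0.00296), and 1.24 without mouse 1-13M (limma adjusted p = 6.39e-04). The probe set 1417266_at gave 1787, 738, 977, 762 and 1331 in the D257A mice and 367, 652, 464, 622 and 419 in the WT mice. The genotypes were again apart, with mice 2-17M and 2-30M the highest on both probe sets. Its log2 fold change was 1.10 ± 0.24 (standard error, limma adjusted p = 0.0156), and 1.20 without mouse 1-13M (limma adjusted p = 0.00420).

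Ccl9, a further ligand of Ccr1 and a close relative of Ccl6, was called with 1 of its 2 probe sets. On 1417936_at the signals were 1033, 654, 888, 740 and 1003 in the D257A mice and 430, 513, 455, 626 and 464 in the WT mice. The groups did not overlap, although D257A mouse 2-21M and WT mouse 2-32M came close. On the log2 scale the difference was 0.79 ± 0.16 (standard error, limma adjusted p = 0.00987), and 0.80 without mouse 1-13M (limma adjusted p = 0.00483). The dimmer probe set 1448898_at gave 347, 178, 340, 205 and 266 in the D257A mice and 175, 169, 143, 202 and 129 in the WT mice. D257A mouse 2-21M fell within the WT range there, and the probe set was not called, with a log2 fold change of 0.67 (95% interval 0.21 to 1.14, limma adjusted p = 0.0743). Without mouse 2-21M it gave 0.81 and a call (limma adjusted p = 0.0402).

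Ccl11, or eotaxin, which recruits eosinophils through Ccr3, was among the brighter members. Its signals were 1723, 1079, 1558, 1098 and 1752 in the D257A mice and 750, 779, 806, 900 and 1281 in the WT mice. WT mouse 3-18M stood above D257A mice 2-21M and 2-27M, so the genotypes overlapped. Its log2 fold change was 0.67 ± 0.19 (standard error, limma adjusted p = 0.0425), and 0.63 without mouse 1-13M (limma adjusted p = 0.0367). This call was close to the threshold. It was lost on leaving out D257A mouse 2-17M (limma adjusted p = 0.112), 2-25M (0.101) or 2-30M (0.0982). It was also lost without WT mouse 1-12M (limma adjusted p = 0.111), 2-3M (0.0999) or 2-32M (0.0845).

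Ccl25, known best for bringing T cells to the thymus and gut through Ccr9, was dimmer. On 1418777_at the signals were 317, 330, 259, 316 and 303 in the D257A mice and 151, 138, 227, 153 and 247 in the WT mice. The lowest D257A mouse was just above the highest WT mouse, and WT mouse 1-12M was under its background limit. Its log2 fold change was 0.77 ± 0.19 (standard error, limma adjusted p = 0.0244), and 0.68 without mouse 1-13M (limma adjusted p = 0.0230). The call was lost on leaving out D257A mouse 2-17M (limma adjusted p = 0.0611), 2-21M (0.0536), 2-27M (0.0511) or 2-30M (0.0510). It was also lost without WT mouse 1-12M (limma adjusted p = 0.0663) or 2-32M (0.0639). The other Ccl25 probe set, 1458277_at, was under the limit in all 10 mice and gave a log2 difference of -0.65 with no test.

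Cxcl12, which retains stem cells and leukocytes in tissues through Cxcr4 and is made by connective tissue and endothelial cells, was the called CXC ligand. On 1417574_at its signals were 1501, 2075, 1861, 2274 and 1520 in the D257A mice and 1215, 777, 1128, 1305 and 1066 in the WT mice. All D257A mice lay above all WT mice, and mouse 1-13M was the lowest WT mouse. The log2 fold change was 0.75 ± 0.16 (standard error, limma adjusted p = 0.0140), and 0.63 without mouse 1-13M (limma adjusted p = 0.00685). A similarly bright probe set, 1448823_at, gave 1837, 1367, 1653, 1496 and 1273 in the D257A mice and 1278, 762, 1436, 1107 and 1359 in the WT mice. The genotypes overlapped on it, and it was not called, with a log2 fold change of 0.38 (95% interval 0.01 to 0.75, limma adjusted p = 0.197). The third, 1439084_at, was under the limit in all mice with a log2 difference of 0.09.

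**Figure D3:**
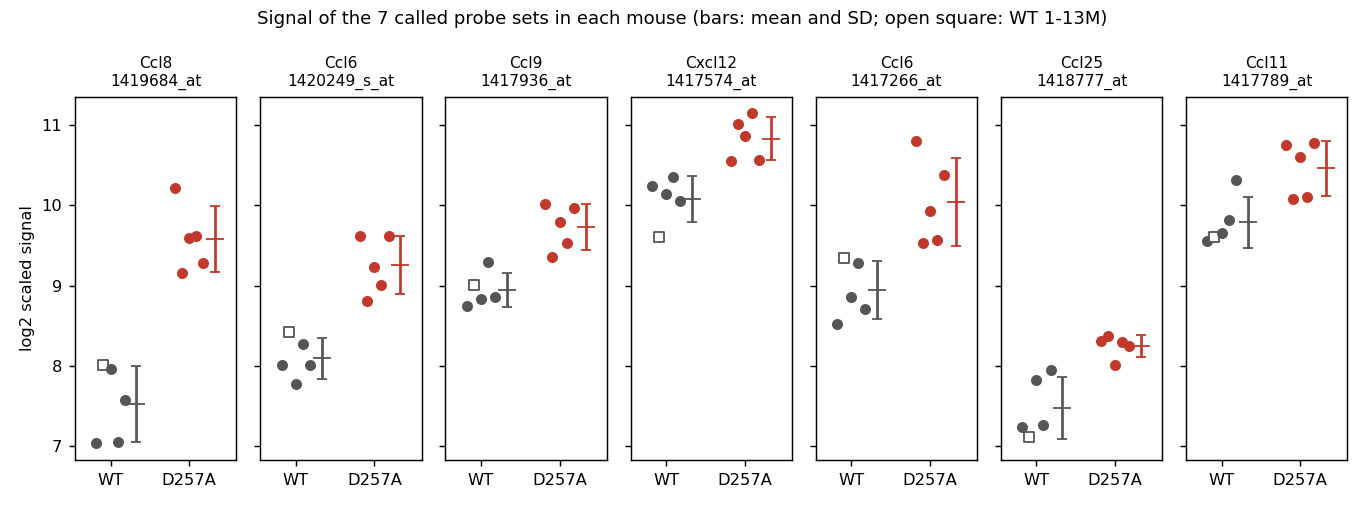
Log2 scaled signal (y axis) of the 7 called probe sets in each of the 5 WT and 5 D257A mice, with the mean and SD of the log2 signals beside the points and WT mouse 1-13M as an open square. The genotypes are apart for 6 probe sets and overlap for Ccl11, and mouse 1-13M is the lowest WT mouse for Cxcl12 and Ccl25 but the highest for Ccl8 and Ccl6.

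The same D257A mice tended to be at the ends of the range. Over the 7 called probe sets, 2 of them of Ccl6, mouse 2-17M was the highest D257A mouse in 4. Mouse 2-21M was the lowest in 5. Not all called genes had this order, since mouse 2-17M was the lowest for Cxcl12 and mouse 2-21M the highest for Ccl25. Mouse 1-13M was the highest WT mouse in 3 and the lowest in 2, and mouse 1-12M was the lowest in 4. The numbers of all D257A mice begin with 2, while those of the WT mice begin with 1, 2 or 3, and what the digit stands for is not stated. In the mice numbered 2 alone, 5 D257A and 2 WT, 2 probe sets were called higher and 0 lower, namely Ccl8 (log2 fold change 2.07, limma adjusted p = 0.00337) and the Ccl6 probe set 1420249_s_at. The other called probe sets kept positive values of 0.59 to 0.97 there without a call. The share of all tested probe sets called in these mice alone was not computed.

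The remaining CC ligands gave no call. Ccl28, a chemokine of mucosal surfaces, had a log2 fold change of -0.02 on its tested probe set (95% interval -0.60 to 0.55, limma adjusted p = 0.970). Its dim probe sets 1450217_at and 1450218_at gave -0.32 and -2.12. The last of these was under the limit in all mice and was the member at an unadjusted p under 0.05 in the lower direction with no filter (limma adjusted p = 0.238). Ccl4, an inflammatory attractant of macrophages and T cells, stood at 85.6 ± 30.0 in D257A vs. 95.3 ± 31.6 in WT (SD, n = 5 each), and its log2 fold change was -0.17 (95% interval -0.84 to 0.51, limma adjusted p = 0.794). Ccl2, the main monocyte attractant, stood at 71.4 ± 26.5 vs. 47.9 ± 17.4 and exceeded the limit in 1 D257A mouse. Ccl24, a ligand of Ccr3 like Ccl11, stood at 83.6 ± 53.2 vs. 42.2 ± 8.22 and exceeded it in 2 D257A mice. Neither was tested. Ccl7, a ligand of Ccr2, was under the limit in every mouse. So were Ccl1, the inflammatory ligands Ccl3 and Ccl5, Ccl20, which binds Ccr6, and Ccl17 and Ccl22, which bind Ccr4.

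Several CXC ligands were bright without a call. Cxcl14, a ligand made by epithelial and connective tissue cells, stood at 1272 ± 202 in D257A vs. 1383 ± 240 in WT on 1418456_a_at (SD, n = 5 each), with a log2 fold change of -0.12 (95% interval -0.45 to 0.21, limma adjusted p = 0.696). Its other probe set, 1418457_at, stood at 709 ± 107 vs. 537 ± 141, with 0.42 (95% interval 0.05 to 0.79, limma adjusted p = 0.154). These probe sets of the same gene thus differed in sign, and neither was called.

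Cxcl13, which guides B cells through Cxcr5, varied widely between WT mice. On 1417851_at it gave 705, 380, 352, 273 and 665 in the D257A mice and 93.4, 626, 530, 227 and 174 in the WT mice. WT mice 1-13M and 2-3M reached the D257A range while 1-12M was under its limit. The log2 fold change was 0.76 (95% interval -0.21 to 1.73, limma adjusted p = 0.334), and 1.08 without mouse 1-13M (limma adjusted p = 0.0859). The probe set 1448859_at gave 0.37 (95% interval -0.31 to 1.06, limma adjusted p = 0.520).

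Cxcl1, a neutrophil attractant, gave 0.08 and -0.06 on its tested probe sets (limma adjusted p = 0.847 and 0.919), and its probe set 1419209_at was under the limit in all mice. Cxcl16, a membrane-bound ligand of Cxcr6, stood at 141 ± 29.2 in D257A vs. 207 ± 71.0 in WT (SD, n = 5 each), with a log2 fold change of -0.50 (95% interval -1.04 to 0.05, limma adjusted p = 0.257). Cxcl11, which interferon induces, gave -0.10 and Cxcl17, a mucosal attractant, -0.31 (limma adjusted p = 0.893 and 0.529). All of these intervals include 0. Cxcl10, another ligand that interferon induces, was under the limit in all mice, at 51.5 ± 11.8 vs. 29.3 ± 24.9. Cxcl9 exceeded the limit in 1 D257A mouse on 1 of its 2 probe sets, and Cxcl2, Cxcl3, Cxcl5 and Cxcl15 did so in no mouse.

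Cx3cl1, or fractalkine, an adhesive ligand on endothelial cells, stood at 103 ± 28.9 in D257A vs. 74.8 ± 6.09 in WT on its tested probe set (SD, n = 5 each). It exceeded the limit in 4 D257A mice and 0 WT mice, but was not called (log2 fold change 0.40, 95% interval -0.17 to 0.97, limma adjusted p = 0.386). When every signal was raised to at least the limit of its array, the value was -0.07. Limits were higher in some WT arrays, so a count of mice above the limit is not a level. Its other 3 probe sets and Xcl1, a ligand of natural killer and T cells, were under the limit in all mice.

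The receptors were near or under background. Of 16 receptor genes, 12 were above the limit in no mouse, and tests were possible for Ccr2 and Cxcr3. Ccr2, the receptor that monocytes use to enter inflamed tissue, gave 139, 90.5, 155, 223 and 173 in the D257A mice and 121, 117, 122, 66.0 and 98.5 in the WT mice on 1421186_at. All D257A mice but only 2 WT mice were above their limits, and mouse 2-21M lay within the WT range. The log2 fold change was 0.55 (95% interval -0.02 to 1.12, limma adjusted p = 0.226). A second tested probe set, 1421188_at, gave 0.05 (95% interval -0.54 to 0.64, limma adjusted p = 0.934), and 2 more were too dim for a test. With signals raised to the highest limit of the arrays, 1421186_at gave 0.12. Cxcr3, the receptor of Cxcl9, Cxcl10 and Cxcl11 on activated T cells, stood at 111 ± 15.9 in D257A vs. 111 ± 17.0 in WT (SD, n = 5 each), and its log2 fold change was -0.01 (95% interval -0.45 to 0.44, limma adjusted p = 0.988).

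For the 6 called ligands the receptors could not be followed. Cxcr4, the receptor of Cxcl12, lay just under the filter at a mean log2 signal of 6.25, with 81.4 ± 25.8 in D257A vs. 74.4 ± 2.98 in WT (SD, n = 5 each), and exceeded the limit in 1 mouse. Ccr1, which binds Ccl6 and Ccl9, was under the limit in all 10 mice on both probe sets. Ccr3, which binds Ccl11, Ccr8, which binds Ccl8, and the 5 probe sets of Ccr9, which binds Ccl25, were likewise under the limit in all mice. Ccr8 readings were 3.95 to 9.12, a range in which readings carry no order. Ccr6, the receptor of Ccl20, exceeded the limit in 2 D257A mice and 1 WT mouse and was not tested. Ccr4, Ccr7, Ccr10, Cxcr2, Cxcr5, Cxcr6, Cx3cr1 and Xcr1 were above it in no mouse. A reading under this limit says that the array did not separate the probe set from odorant receptors, not that the RNA was absent.

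The 52 untested probe sets had mean log2 signals of 1.25 to 6.25 with a median of 4.31, against a median of 7.96 for the tested members. Their log2 differences ran from -2.12 to 2.12, with a median of -0.18 and 17 above 0. They were also noisier, with a median SD within genotype of 0.99 on the log2 scale vs. 0.36 for the tested members. In 0 of the 52 were the genotypes apart in either direction. Over all tested probe sets, which are brighter, these shares were 3.94% and 3.77%. The shares over all untested probe sets were not computed. This count and the 17 above 0 are therefore not read as a trait of the members.

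Along chromosome 11, the member genes next to called ligands were other called ligands or ligands too dim for a test. In RefSeq gene order (GRCm38.p6), chromosome 11 carried 14 member genes, and 4 of the 6 called genes, Ccl11, Ccl8, Ccl9 and Ccl6, were among them. The order there began with Cxcl16, which was tested and gave -0.50 without a call. Next came Ccl2, Ccl7, Ccl11, Ccl12 and Ccl8, followed by Ccl1 and Ccl5 and then by Ccl9, Ccl6, Ccl3 and Ccl4. The untested receptors Ccr7 and Ccr10 came last. Ccl11, the untested Ccl12 and Ccl8 gave log2 differences of 0.67, 2.12 and 2.05. Ccl2 and Ccl7 before them gave 0.59 and -0.20 and were also too dim for a test. Ccl9 and Ccl6 gave 0.79 and 1.10. After them came -0.40 for Ccl3, under the limit in all mice and untested, and -0.17 for Ccl4, tested and not called. Chromosome 5 carried the CXC cluster and Ccl24. Of its 10 member genes only Cxcl1, Cxcl11 and Cxcl13 were bright enough for a test, and 0 were called. Of the 10 receptor genes on chromosome 9 only Ccr2 was tested, and it was not called. Cxcl12 lies on chromosome 6 and Ccl25 on chromosome 8.

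**Figure D4:**
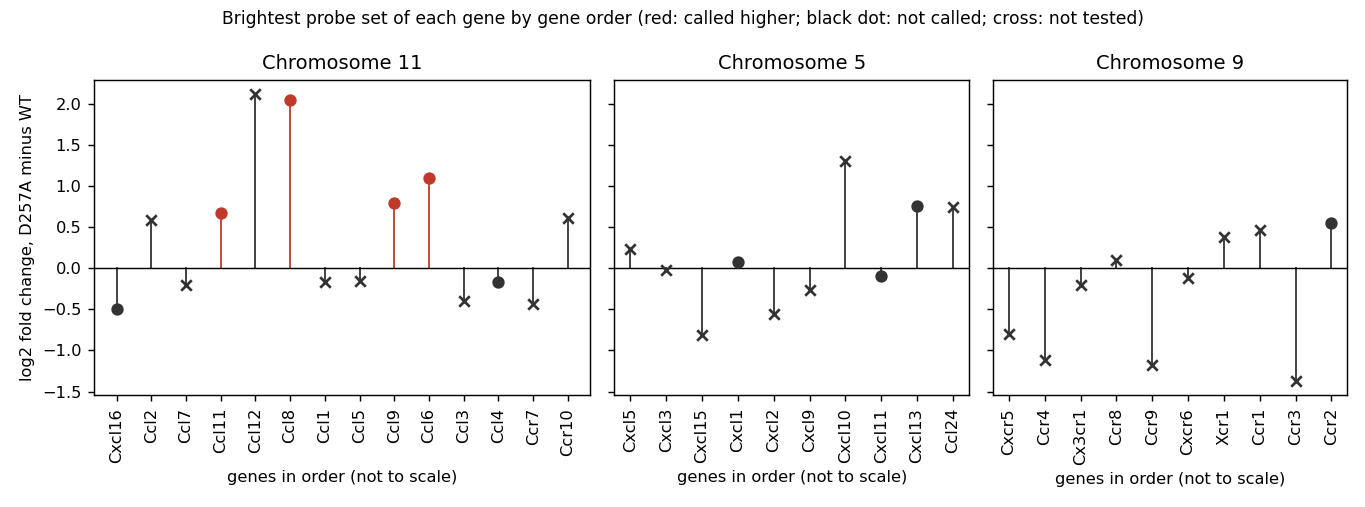
Log2 fold change (D257A minus WT, y axis) of the brightest probe set of each member gene on chromosomes 11, 5 and 9, in gene order and not to scale (x axis), with red for called higher, black dots for tested and not called, and crosses for genes too dim for a test. The 4 red genes on chromosome 11 sit in 2 stretches, Ccl11 and Ccl8 with the untested Ccl12 between them and Ccl9 beside Ccl6. Chromosomes 5 and 9 hold no red gene, and most of their genes were too dim for a test.

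Promoters are shown as the 250 bases before the annotated start, from RefSeq (GRCm38.p6), for the called ligands Ccl8, Ccl9 and Ccl6 of chromosome 11 and for Ccl12, the untested neighbour of Ccl8. Capitals mark a match to the letters TGANTCA, where N is any base, searched here for AP-1, a factor of stress and growth signalling.
Ccl12, chr11:82101595-82101844, plus strand: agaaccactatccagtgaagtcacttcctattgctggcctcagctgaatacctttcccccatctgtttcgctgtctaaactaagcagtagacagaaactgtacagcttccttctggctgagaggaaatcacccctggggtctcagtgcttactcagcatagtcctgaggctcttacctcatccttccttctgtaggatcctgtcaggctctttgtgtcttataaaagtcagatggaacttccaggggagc
Ccl8, chr11:82114935-82115184, plus strand: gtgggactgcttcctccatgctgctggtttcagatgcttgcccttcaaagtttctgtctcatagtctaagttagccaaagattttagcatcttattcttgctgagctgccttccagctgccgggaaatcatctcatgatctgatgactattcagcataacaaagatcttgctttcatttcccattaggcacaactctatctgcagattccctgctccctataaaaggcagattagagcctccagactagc
Ccl9, chr11:83578637-83578886, minus strand: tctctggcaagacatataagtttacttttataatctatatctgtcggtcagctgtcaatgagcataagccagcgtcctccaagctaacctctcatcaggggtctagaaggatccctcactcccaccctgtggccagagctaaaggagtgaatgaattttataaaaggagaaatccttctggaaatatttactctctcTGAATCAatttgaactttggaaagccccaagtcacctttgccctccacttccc
Ccl6, chr11:83593088-83593337, minus strand: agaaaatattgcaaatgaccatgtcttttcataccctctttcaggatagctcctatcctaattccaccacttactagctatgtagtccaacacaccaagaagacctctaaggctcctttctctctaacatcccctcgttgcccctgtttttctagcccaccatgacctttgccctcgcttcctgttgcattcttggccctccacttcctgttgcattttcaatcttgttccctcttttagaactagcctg
Of the called genes, Ccl8, Ccl6, Ccl9, Cxcl12 and Ccl25 had an entry, and Ccl11, Ccl2 and Ccl7 were among the genes without one. Promoters were searched on both strands for NF-kappaB (GGANTTTCC), AP-1 (TGANTCA), C/EBP (TTGCNNAAT), interferon-regulatory factor (GAAANNGAA), STAT (TTCNNNGAA) and PU.1 (GAGGAAGT), where N is any base. Among these 5 called genes, Ccl9 held a match to the AP-1 letters (TGAATCA), at position -53 from the start. The others held none of the 6 motifs, nor did Ccl12. AP-1 letters were in 6.75% of all 32851 promoters of this length and in 4 of 37 member promoters.

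The NF-kappaB letters were in 1.07% of all promoters and in 5 of the 37 member promoters (13.5%), those of Ccr3, Cxcl1, Cxcl10, Cxcl2 and Cxcl3. Of these 5 genes only Cxcl1 was bright enough for a test, and it was not called. The neutrophil attractants Cxcl1, Cxcl2 and Cxcl3 of chromosome 5 share these letters and are shown as the 100 bases before the start with the NF-kappaB letters in capitals.
Cxcl3, chr5:90786001-90786100, plus strand: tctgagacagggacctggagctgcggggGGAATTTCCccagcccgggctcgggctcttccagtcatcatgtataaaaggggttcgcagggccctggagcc
Cxcl1, chr5:90891145-90891244, plus strand: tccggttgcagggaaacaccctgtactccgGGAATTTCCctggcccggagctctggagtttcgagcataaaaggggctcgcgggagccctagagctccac
Cxcl2, chr5:90903799-90903898, plus strand: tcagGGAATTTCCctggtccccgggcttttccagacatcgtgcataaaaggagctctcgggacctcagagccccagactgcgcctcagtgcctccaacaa
The same letters stood at positions -72 in Cxcl3, -70 in Cxcl1 and -96 in Cxcl2, while Cxcl2 and Cxcl3 were under the background limit in all mice and Cxcl1 gave the values near 0 above. Interferon-regulatory factor letters were in 7.13% of all promoters and in 6 of 37 members, STAT letters in 7.02% and 3 of 37, C/EBP letters in 2.11% and 1 of 37, and PU.1 letters in 2.44% and 1 of 37. No printed match overlaps another motif of this search. A match describes letters only, and the lack of one says only that those letters are not in this window.

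Other genes of the pathway mostly gave no call. The counts of called genes below stand beside 3.64% called higher and 3.74% lower over all tested probe sets, or 7.32% and 7.90% without WT mouse 1-13M. For each of these genes the values are those of the brightest probe set annotated to it and to no other gene. Of the 5 other chemokine ligands on the array, 0 were called, and platelet factor Pf4 stood at 1312 ± 217 in D257A vs. 1238 ± 176 in WT (SD, n = 5 each). Without mouse 1-13M the skin chemokine Ccl27a was called lower (log2 fold change -0.44, limma adjusted p = 0.0410). Of the 6 tested atypical and like receptors, 1 was higher and 0 lower, with a median log2 fold change of 0.03. The called gene was Ackr1, which binds chemokines on venular endothelium without G protein signalling, at 450 ± 63.1 vs. 293 ± 51.1 with no overlap (log2 fold change 0.63, limma adjusted p = 0.0305). Ccrl2, which presents chemerin on cells, gave 0.72 (limma adjusted p = 0.0545), and without mouse 1-13M it was called too (0.70, limma adjusted p = 0.0471). Ackr3, the scavenger of Cxcl12, gave -0.29 (limma adjusted p = 0.314).

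Leukocyte adhesion genes numbered 13 tested, with 1 called higher, 0 lower and a median of 0.15. That gene was Selp, P-selectin, on which leukocytes roll along activated endothelium, at 259 ± 44.7 in D257A vs. 128 ± 48.4 in WT (SD, n = 5 each), with a log2 fold change of 1.09 (limma adjusted p = 0.0175). Without mouse 1-13M, 2 were called higher and 2 lower. The additions were Icam1, a ligand of leukocyte integrins (1.18, limma adjusted p = 0.00258), and the junctional molecules Jam2 (-0.52, 0.00980) and Jam3 (-0.47, 0.0375). Of 21 tested genes of receptor signalling, 0 were higher and 1 was lower, with a median of 0.08. That gene was Elmo1, which links receptors to Rac and cell migration, with -0.72 (limma adjusted p = 0.0229). Without mouse 1-13M the inhibitory G protein subunit Gnai3 was called higher (0.39, limma adjusted p = 0.0228). A list of chemokine induction held cytokines and transcription factors, and also the NF-kappaB inhibitors Nfkbia and Tnfaip3. Of its 18 tested genes, 0 were called, with a median of -0.08. Without mouse 1-13M, 2 were called higher and 0 lower, the macrophage growth factor Csf1 (0.72, limma adjusted p = 0.0373) and the transcription factor Cebpb (0.97, limma adjusted p = 0.0177). Within this group Tnf, Il1a, Ifng, Il4, Il10, Il13 and Csf2 were under the background limit in all mice. Of 14 tested genes that bind or trim chemokines, 0 were called, with a median of -0.03.

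Several markers of macrophages were also higher in D257A mice. Of 18 listed, 17 were tested, 8 were higher and 0 lower, with a median log2 fold change of 0.48, and without mouse 1-13M 9 were higher. Lgals3, which encodes galectin-3, gave 1.32 (limma adjusted p = 6.38e-04), the Fc receptor Fcgr3 1.00 (0.00210), the lysozyme Lyz1 0.70 (0.00602) and the mannose receptor Mrc1 0.78 (0.00897). Defining markers were not all higher: Cd68 gave 0.02, Adgre1 0.33 and Csf1r 0.20, none of them called. The summed scaled signal of the list was 19151 to 27431 in D257A mice and 13841 to 17768 in WT mice, without overlap, and Aif1 alone was under the limit in all mice. Among D257A mice, mouse 2-17M had the highest sum and mouse 2-21M the lowest. The part of macrophage number or state in the chemokine differences was not tested.

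Markers of lymphocytes were dim. T cell markers summed to 155 to 301 in D257A vs. 199 to 356 in WT, and 7 of 8, Cd3d, Cd3e, Cd3g and Cd4 among them, were under the limit in all mice. B cell markers summed to 260 to 384 vs. 283 to 427 with 5 of 7 under it, and natural killer cell markers to 158 to 290 vs. 200 to 337 with 5 of 6 under it. Dendritic cell markers summed to 964 to 1479 vs. 642 to 914, again without overlap, and the defining marker Itgax was under the limit in all mice. Flt3 and Itgax, too dim for a test, had lower means in D257A mice, and the untested Batf3 a higher one. Of the 3 tested, Zbtb46 went the other way without a call (-0.49, limma adjusted p = 0.129). Only 1 was called higher, Clec10a (1.28, limma adjusted p = 0.00336), the brightest of the list at 681 ± 207 vs. 274 ± 53.3 (SD, n = 5 each). Without mouse 1-13M the lectin receptor Cd209a was called too (0.83, limma adjusted p = 0.00895), so that 2 of 3 were higher, whereas with all mice, at 229 ± 36.5 vs. 106 ± 54.7 (SD, n = 5 each), it was not (limma adjusted p = 0.109). Neutrophil markers summed to 648 to 3757 vs. 368 to 991, with 0 of 3 tested called, Elane under the limit and the top value in mouse 2-30M alone. Mast cell markers summed to 579 to 774 vs. 731 to 984, with 0 of 4 tested higher and 1 lower (Cma1, -1.04, limma adjusted p = 0.0287).

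Markers of cells that are not leukocytes were compared in the same way. Endothelial markers summed to 5672 to 7076 in D257A vs. 5183 to 6139 in WT, with 1 of 8 higher, Vwf (0.85, limma adjusted p = 0.00273), and a median of -0.02. Without mouse 1-13M, 2 were higher, with the sialomucin Emcn added (0.47, limma adjusted p = 0.0212). Fibroblast and matrix markers summed to 21368 to 25336 vs. 21586 to 35315, with 0 of 8 higher, 4 lower and a median of -1.14, and 5 lower without mouse 1-13M, with the proteoglycan Lum added (-0.76, limma adjusted p = 0.00534). The 4 were the collagens Col1a1, Col1a2 and Col3a1 and the protease inhibitor Pi16, while Pdgfra gave -0.04, Dcn -0.08 and Fap -0.23 without a call. Muscle fibre markers summed to 471264 to 503907 vs. 418335 to 552362, with 0 of 10 higher and 1 lower. The part of these cells in the chemokine differences was not tested.

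**Figure D5:**
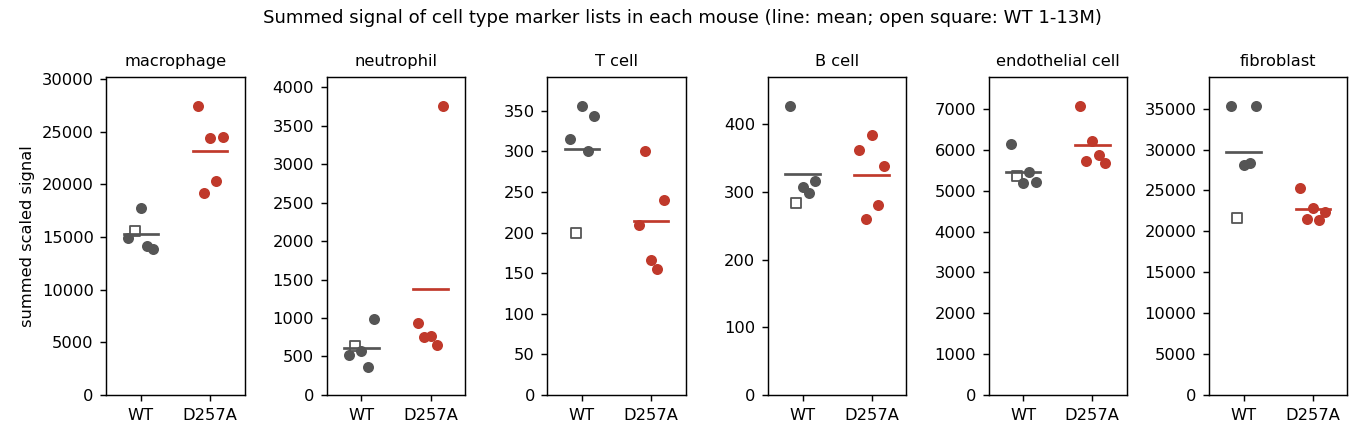
Summed scaled signal (y axis, from 0) of 6 marker lists in each WT and D257A mouse, with the mean as a line and WT mouse 1-13M as an open square. Macrophage sums, in which the bright Lyz1 weighs most, do not overlap between genotypes. T cell and B cell sums are small and overlap, and the neutrophil sum is 3757 in 1 D257A mouse. Fibroblast sums are lower in D257A mice apart from mouse 1-13M among WT.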

How the data were processed

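Total RNA of 10 gastrocnemius muscles was hybridized to 1 array each. The deposited intensity values are 1 linear signal per probe set and array, made by the authors with GCOS 1.3 per the labels. Which algorithm gave the signals is not stated in the sources used here. A scaling target of 500 is stated in the methods but is not met by the columns, so each array was scaled to it here. A protocol line of the labels names cochlea as the RNA source, and the tissue label was followed.

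The 64 control probe sets were left out of 45101. The platform annotation gave 34958 probe sets a single symbol and 932 several, and 9160 were unannotated. Log2 signals were fitted with limma 3.58.1 under R 4.3.3, by lmFit without covariates on 5 vs. 5 mice and then eBayes with a trend of variance on mean. The fit was tested on simulated data first. Tables, promoter searches and figures used Python 3.11.15, matplotlib 3.10.9, pandas 2.3.3, NumPy 2.4.6 and SciPy 1.17.1. Of the member genes, 35 matched a RefSeq promoter.

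Every member gene was named. Called probe sets, further probe sets of called genes and some others were given by mouse, and lists by at most 4 called genes with the smallest adjusted p. Ccl12, Cxcl13, Ccr2 and the promoters printed were singled out after their values were seen. The members, pathway lists and marker lists were chosen with earlier results of these data known.

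Alternatives were no scaling, centring on the median, quantile normalization, no filter, the 11259 brightest probe sets, an offset of 32, signals raised to the odorant receptor limit, no variance trend, array weights, the methods' t-test, a gene's tested probe sets averaged, mice numbered 2 alone, the leading digit as a block, and each mouse left out. Signals raised to the highest limit of the arrays were added after seeing the data. The number of arrays limits the precision of all values.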

Additional observations from a re-analysis of the deposited data

Results flagged for a closer look

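In 2 of the 48 groups of 5 mice examined for tested members, 1 mouse lay far from the rest, where chance alone gives about 1 in 20 groups. Ccl11 read 1281 in WT mouse 3-18M and 750 to 900 in the other WT mice, a gap of 0.717 of the group's range. On 1418457_at, Cxcl14 read 785 in WT mouse 2-32M and 444 to 513 in the other WT mice, a gap of 0.795 of the range. The cause of neither was tested.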

How the results depend on the processing

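The count of member probe sets called higher was 7, and 5 to 8 under other scalings, filters, floors, offset, weights and variance models. It was 3 with the methods' t-test after Benjamini-Hochberg adjustment (9 unadjusted), 2 in mice numbered 2 alone and 2 with the leading digit as a block. With each mouse left out in turn it was 5 to 7. The count called lower was 0 throughout, also with the t-test unadjusted. All D257A mice bear the digit 2, so the block takes its genotype difference from the mice numbered 2. Both settings gave the same log2 fold changes, such as 2.07 for Ccl8, and are not separate checks. The median log2 fold change of tested members was 0.39, 0.71 in the 11259 brightest probe sets, 0.23 to 0.53 in the other settings and 0.32 to 0.45 with a mouse left out.

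Ccl8 (limma or t-test adjusted p 4.95e-05 to 0.0141) and the Ccl6 probe set 1420249_s_at (4.22e-04 to 0.0330) kept their calls wherever they were tested. Ccl9 on 1417936_at lost its call in mice numbered 2 (adjusted p = 0.0727) and with the block (0.117). Cxcl12 lost it there (0.0672 and 0.161) and with the t-test (0.0537), as did the Ccl6 probe set 1417266_at (0.0789, 0.144 and 0.0770), which also lost it with signals raised to the highest limit of the arrays (0.0559). Ccl11 lost its call in 13 alternatives and Ccl25 in 10, among them no filter (0.0625 and 0.0536). No called value changed sign. Without scaling the median of all tested probe sets was -0.104, and with centring 0.104, against -0.029. The cause of these changes was not tested.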
